A study of Mus musculus with 2 samples.

Results

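The Myc family genes Myc, Mycn and Mycl were described through the chromatin loops around them in V6.5 cells, a line of male mouse embryonic stem cells. The 3 genes were taken by symbol from RefSeq's annotation of GRCm38.p6 (mm10), which lists 21627 protein-coding genes on chromosomes 1 to 19 and X. For each gene, all loops with an anchor within 2 Mb of its record were collected, which gave 35 of the 4982 loops in the list. Of these, 8 had an anchor at an end of a member or enclosed one. The data came from Micro-C, which maps contacts between chromatin fragments cut by micrococcal nuclease. Its 2 samples form a single group called siControl. These wild-type cells were transfected with siGLO control siRNA at 50 nM and collected 48 hours later. There was 1 loop list for the group, with no values per sample and no depth, so no spread between replicates could be measured and no test was run. A gene without a loop is only a gene for which no loop was listed.

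MYC proteins are basic helix-loop-helix leucine zipper transcription factors. They pair with MAX, bind E-box sequences, and raise the expression of genes for growth, ribosome production and metabolism. Myc and Mycn are used by pluripotent and embryonic progenitor cells, whereas Mycl is the least studied member and has known roles in dendritic cells and in lung cancer. Much of the control of Myc in other cell types is known to come from enhancers that lie far from the gene, and loops are one way in which such distant sites are brought close.

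The members differed in how many loops lay around them and in how those loops met the gene. All 3 had loop anchors within 2 Mb, as did 97.3% of protein-coding genes. Myc had 6 such loops, Mycn had 10 and Mycl had 19. Over all protein-coding genes the median was 9 loops, with quartiles at 6 and 13. Myc thus stood at percentile 24.9, Mycn at 55.1 and Mycl at 96.8 of genes. The order was different for loops that enclosed the gene, meaning that its whole record lay between the outer limits of the loop. Mycn was enclosed by 4 loops, one of which had its own anchor over the gene, Myc by 2 and Mycl by 1. Among all genes, 35.5% were enclosed by at least 1 loop, 13.5% by at least 2 and 1.17% by at least 4. An anchor held an end of the gene record at Myc and at Mycn, with 1 loop each, and at neither end of Mycl. The share of all protein-coding genes with an end in an anchor was 9.04%. All 3 members were either at an anchor or enclosed, against 38.5% of all genes.

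**Figure D1:**
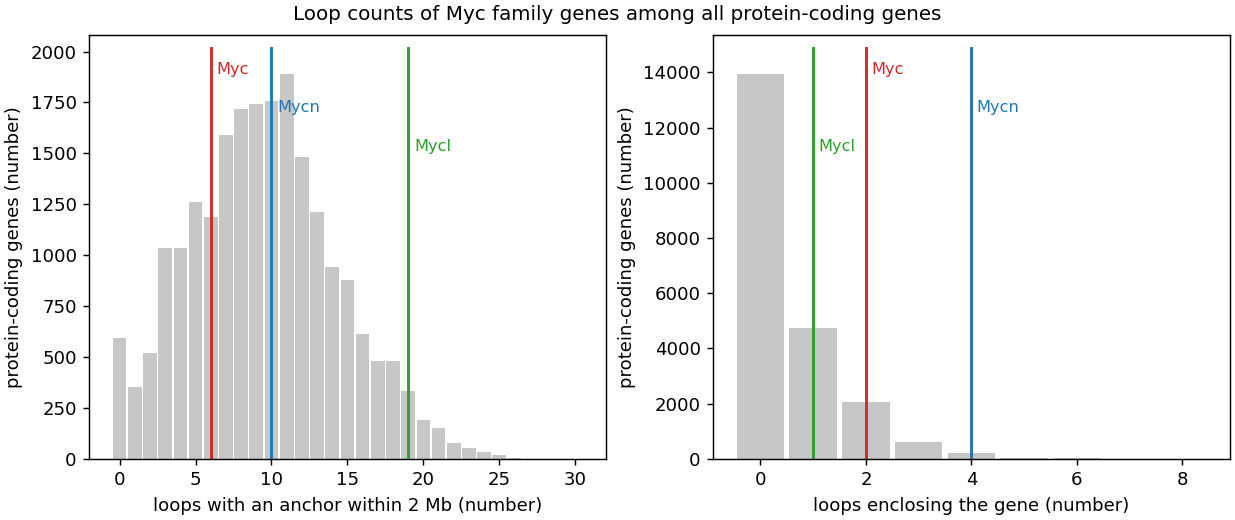
Loop counts of the members among all 21627 protein-coding genes. Left, number of loops with an anchor within 2 Mb of the gene (x axis) against number of genes (y axis). Right, number of loops enclosing the gene. Grey bars are all genes and coloured lines mark Myc (6 and 2), Mycn (10 and 4) and Mycl (19 and 1), so the member with the most loops nearby had the fewest around it.

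The gene surroundings also differed. No other protein-coding record lay within 1 Mb of Myc, which was true of 42 of 21627 genes (0.194%). Mycn had 3 such neighbours and Mycl had 23, against a median of 29 over all genes. The nearest protein-coding record below Myc, toward lower coordinates, was A1bg at 1064 kb, and the nearest above was Gsdmc, a gasdermin gene, at 1786 kb. Mycn lay between Cyria, at 555 kb below, and Ddx1, an RNA helicase gene that is co-amplified with MYCN in some human neuroblastomas, at 277 kb above. Mycl lay between Mfsd2a, a transporter of lipids that carry docosahexaenoic acid, at 34.4 kb below, and Trit1, a tRNA-modifying enzyme, at 14.1 kb above.

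**Figure D2:**
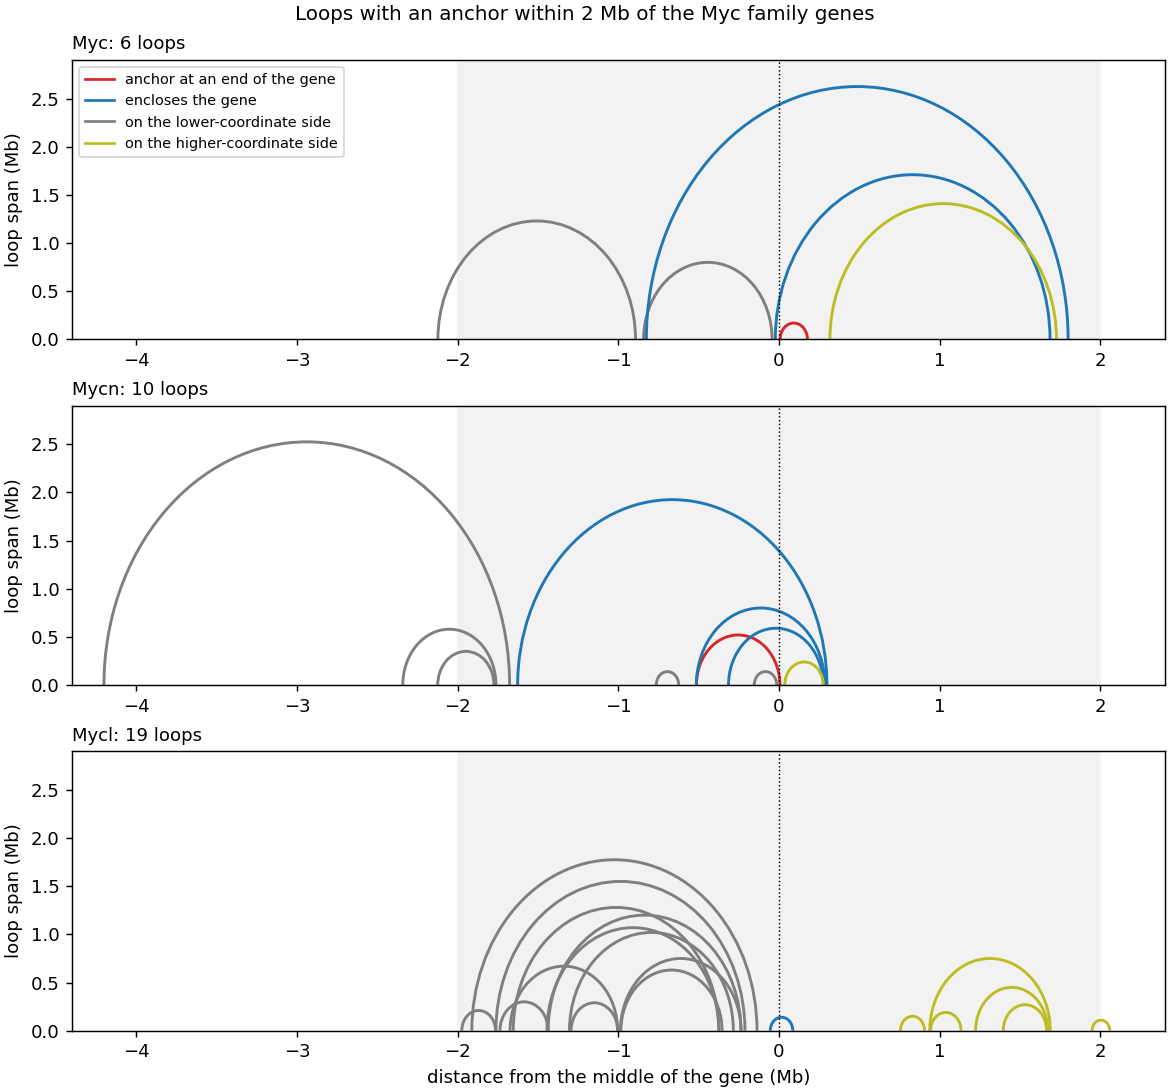
Arcs of all 35 loops within 2 Mb of Myc, Mycn and Mycl. The x axis is the distance from the middle of the gene in Mb, the arc height is the loop span in Mb, and the shaded area is the 2 Mb window. At Myc 3 loops ran to sites over 1 Mb above the gene. At Mycn loops met at Ddx1, whose record began 277 kb above the gene. At Mycl 12 of 19 loops lay wholly below the gene.

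Mycn (chromosome 12, 12936093 to 12941836) is on the minus strand, and its start site at 12941836 lay inside a loop anchor. A start site in an anchor was found for 5.2% of the 17273 protein-coding genes with a promoter entry. The anchor, from 12940001 to 12950000, held 1836 of the 5744 bases of the record. It was joined over 520 kb to a site from 12420001 to 12430000 by a loop of 10 kb pixels, the size of the contact-map bins in which the loop was listed. The peak score, a score of the loop caller with no unit, was 4.16, at percentile 57.5 of loops of this pixel size. The peak pixel, the value of the contact map at the loop, was 8.23, at percentile 78.8. The far anchor held 2 annotated start sites of Gm34489, a predicted long non-coding RNA gene (12421041 to 12524489, plus strand), at 12421041 and 12427376. The anchors thus held the start of Mycn at one side and starts of a non-coding gene at the other, with no protein-coding record between them. An end of the Gm48201 record also lay in the Mycn anchor.

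The promoters of Mycn and Gm34489 are shown because their start sites lay in the 2 anchors of this loop, and that of Ddx1 because its start site lay in an anchor of a loop around Mycn. Each runs from 250 bases before to 50 bases after the start site, 5′ to 3′ on the strand of the gene, from RefSeq on GRCm38.p6. They are chr12:12941787-12942086 (minus strand), chr12:12420791-12421090 (plus strand) and chr12:13249125-13249424 (minus strand). Capitals mark matches to the motifs listed after them.
Mycn: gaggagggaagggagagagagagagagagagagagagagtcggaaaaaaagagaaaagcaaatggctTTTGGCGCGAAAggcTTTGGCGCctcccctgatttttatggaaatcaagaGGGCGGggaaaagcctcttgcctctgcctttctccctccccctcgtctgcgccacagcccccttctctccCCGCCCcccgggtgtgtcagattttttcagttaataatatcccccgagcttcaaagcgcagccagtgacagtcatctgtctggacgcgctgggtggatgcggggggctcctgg
Gm34489: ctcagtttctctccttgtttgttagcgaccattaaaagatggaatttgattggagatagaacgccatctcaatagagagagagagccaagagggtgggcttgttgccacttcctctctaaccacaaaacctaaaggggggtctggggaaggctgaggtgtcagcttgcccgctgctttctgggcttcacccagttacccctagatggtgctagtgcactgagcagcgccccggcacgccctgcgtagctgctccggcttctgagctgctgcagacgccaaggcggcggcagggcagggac
Ddx1: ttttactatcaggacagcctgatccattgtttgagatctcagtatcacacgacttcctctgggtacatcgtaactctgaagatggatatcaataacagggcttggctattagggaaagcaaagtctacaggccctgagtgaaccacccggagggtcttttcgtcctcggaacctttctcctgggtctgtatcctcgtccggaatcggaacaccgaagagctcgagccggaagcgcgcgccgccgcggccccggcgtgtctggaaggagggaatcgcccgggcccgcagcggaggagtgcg
The motifs searched on both strands were the E-box CACGTG, the GC box GGGCGG, the E2F motif TTTNGCGC and the TATA box TATAAA. The Mycn promoter held 3 matches to the E2F motif. They began at positions -183, -179 and -168 from the start site, and the one at -179 is a reverse-strand match that overlaps the one at -183. An E2F match was present in 1.39% of 32619 promoters of the same length. Mycn also held 2 GC boxes, a motif present in 35.9% of promoters. The promoters shown for Gm34489, that of its start site at 12421041, and for Ddx1 held no match to any of the 4 motifs. The promoter of the other Gm34489 start site in the anchor, at 12427376, is not shown.

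The sites that met above Mycn lay at Ddx1. Anchors of 4 loops fell in 40 kb there, from 13210001 to 13250000, and the Ddx1 record (13219307 to 13249174, minus strand) covers most of that stretch. The loop from the Gm34489 anchor to 13220001 to 13230000 spanned 800 kb and enclosed Mycn (peak score 4.62, percentile 73.6). Another enclosing loop ran from 12620001 to 12630000, where no gene end lay, to 13210001 to 13220000 at the 3′ end of Ddx1. Its span was 590 kb and its peak score 4.33 (percentile 64.0). The longest enclosing loop, of 25 kb pixels and 1925 kb, joined the 3′ end of Smc6, a subunit of the SMC5/6 complex (11300001 to 11325000), to an anchor with the Ddx1 start site (13225001 to 13250000), with a peak score of 5.30 (percentile 87.1). It held 5 whole protein-coding records, against a median of 2 (quartiles 1 and 5) in the 100 loops of 0.8 to 1.2 times its span. Ddx1 had ends in the anchors of 3 loops, and 1.14% of genes had ends in anchors of 2 or more.

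Short loops flanked Mycn on each side without reaching the gene. The nearest ran over 140 kb from 12780001 to 12790000 to 12920001 to 12930000, and its near anchor ended 6.09 kb below the record (peak score 3.70). On the other side, a loop of 240 kb ran from 12970001 to 12980000, which began 28.2 kb above Mycn, to the same Ddx1 anchor of 13210001 to 13220000 (peak score 4.05). Of the other loops in the window, the one with the highest peak score was far from the gene. It ran from 10595001 to 10600000 to 11175001 to 11180000, with its near anchor 1756 kb away (8.86, percentile 97.4 of 5 kb pixels). Peak scores were above the median of their pixel size in 8 of the 10 loops near Mycn, and in 7 among loops of like span. By the latter measure the enclosing loops of 800, 590 and 1925 kb stood at percentiles 65.5, 57.5 and 73.2. The peak pixels of the 3 loops of 10 kb pixels that touched or enclosed Mycn were at percentiles 78.8, 91.1 and 83.2, among the brighter ones of the list, whereas that of the 25 kb loop was at 13.5 (31.2 among loops of its pixel size and like span).

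**Figure D3:**
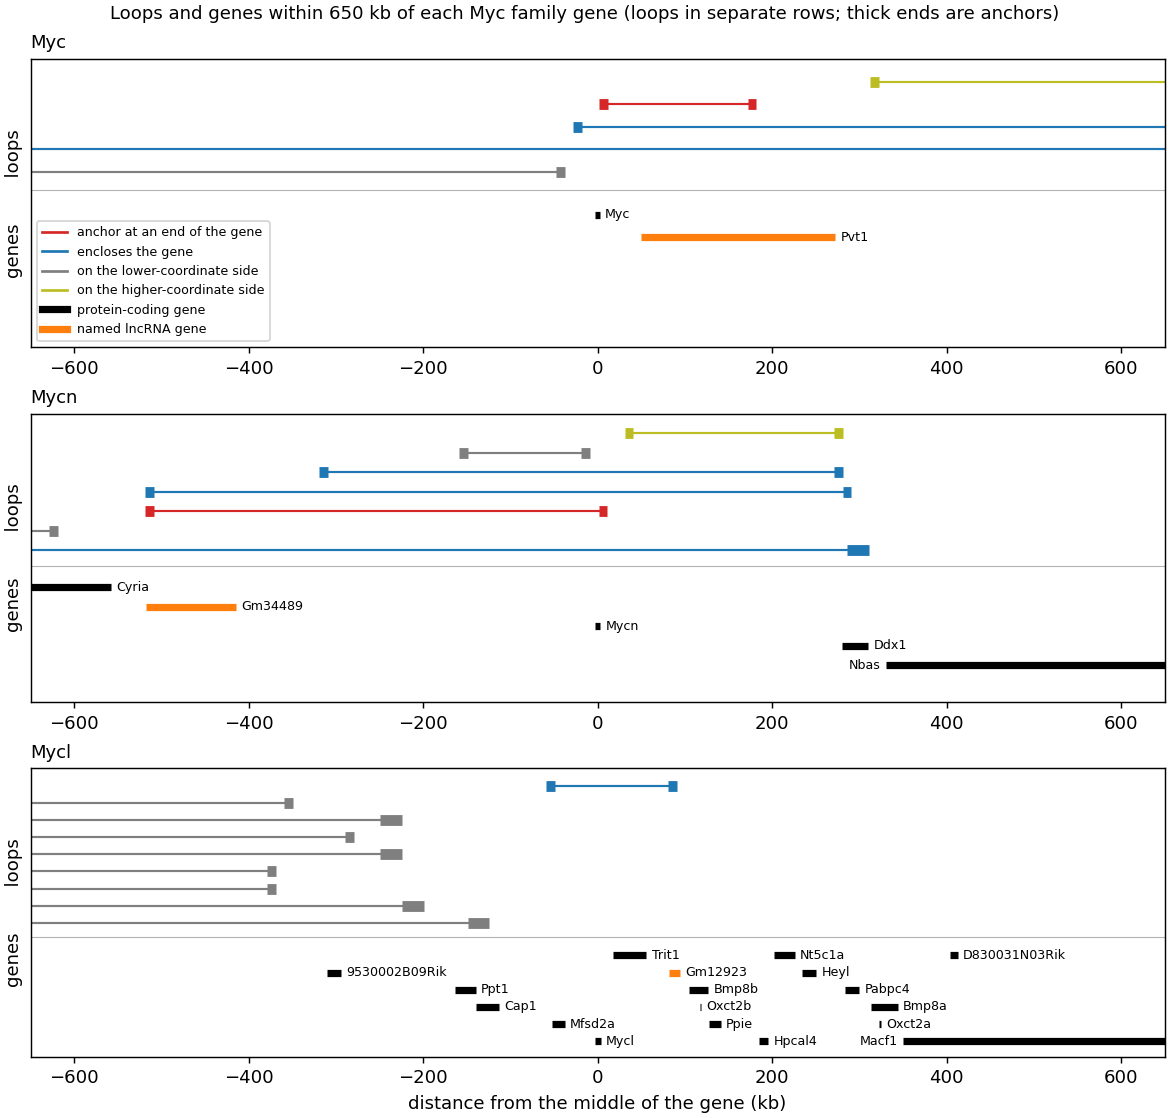
Loops (each in its own row, with thick ends for the anchors) and genes within 650 kb of each member. The x axis is the distance from the middle of the gene in kb; black bars are protein-coding genes and orange bars the named long non-coding RNA genes. The Myc loop ended inside Pvt1, the Mycn loops ended at Gm34489 and Ddx1, and the Mycl loop enclosed Mycl and Trit1.

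Myc (chromosome 15, 61985341 to 61990361) had a loop from its higher-coordinate end into Pvt1, the neighbouring long non-coding RNA gene that is often co-amplified with MYC in human tumours. The anchor from 61990001 to 62000000 held only the last 361 of 5021 bases of the Myc record. The other anchor, from 62160001 to 62170000, lay inside the Pvt1 record (62037986 to 62260215) and held no gene end. The span was 170 kb. This was a weak entry of the list, with a peak score of 2.87, at percentile 2.12 of loops of 10 kb pixels. Its peak pixel of 4.72 stood at percentile 6.12 of those loops, and at percentile 2.70 of the 575 among them whose span was 0.8 to 1.2 times as long. The ratio of the peak pixel to the mean of its 3 by 3 block was 1.29, against a median of 1.55 (quartiles 1.43 and 1.71) for 10 kb pixels.

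Long loops that enclosed Myc ended close together more than 1 Mb above it. One ran over 1710 kb from 61960001 to 61970000, which ended 15.3 kb below Myc and overlapped only the pseudogene Gm18788, to 63670001 to 63680000 (peak score 4.04, percentile 52.1). The other, of 25 kb pixels and 2625 kb, ran from the non-coding gene Gm38563 (61150001 to 61175000) to an end of Gsdmc (63775001 to 63800000). Its peak score was 5.24, the highest near Myc, at percentile 86.5. Myc was the only whole protein-coding record inside each of them. The 46 loops of like span to the longer one held a median of 4 records (quartiles 1 and 10.75), and the 134 of like span to the shorter one held 2 (1 and 5).

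A further loop ended in the same 130 kb above Myc, so that 3 far anchors lay between 63670001 and 63800000. It started at 62300001 to 62310000, above Pvt1, spanned 1410 kb, and had the highest peak score of the loops that neither touched nor enclosed Myc (4.49, percentile 69.5). Below Myc, a loop of 800 kb from 61140001 to 61150000 ended at 61940001 to 61950000, 35.3 kb short of the gene (4.06, percentile 53.1). Peak pixels were low around Myc. Of its 6 loops, 1 had a peak pixel above the median of its pixel size, against 6 of 10 at Mycn and 9 of 19 at Mycl. Among loops of the same pixel size and like span, these counts were 1 at Myc, 7 at Mycn and 12 at Mycl. The 5 loops of 10 kb pixels at Myc had peak pixels at percentiles 2.71, 1.79, 14.5, 6.12 and 22.6. Apart from the Myc and Pvt1 loop, their peak scores stood at percentiles 8.68, 53.1, 52.1 and 69.5 of their pixel size. Among loops of the same pixel size and like span they stood at 0.915, 42.8, 25.8 and 46.6, all below the median. By that measure 1 of the 6 Myc loops had a peak score above the median, against 4 by pixel size alone.

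**Figure D4:**
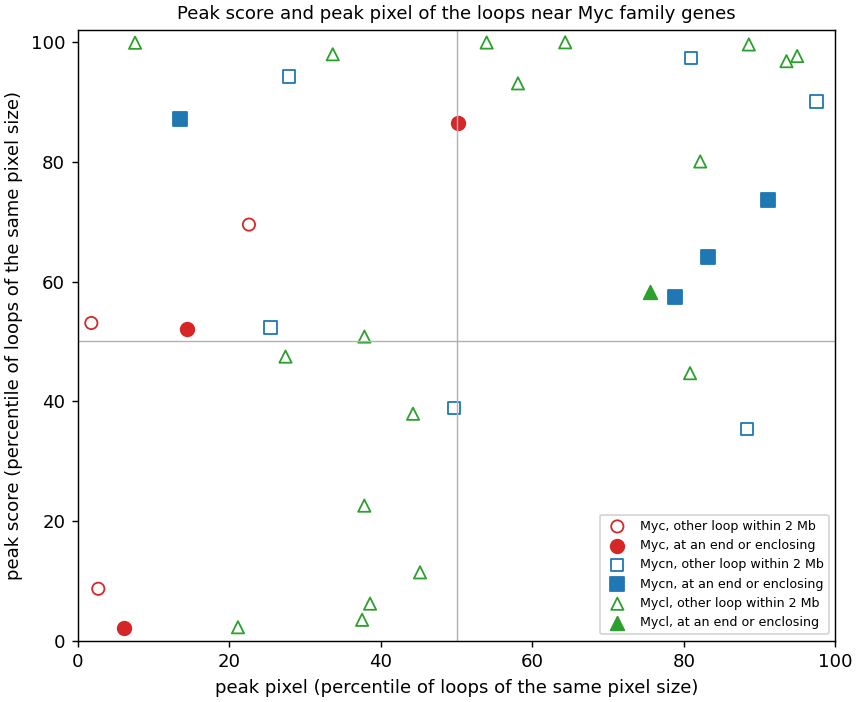
Peak pixel (x axis) and peak score (y axis) of the 35 loops, each as a percentile of loops of the same pixel size in the whole list. Circles are Myc, squares Mycn and triangles Mycl; filled symbols had an anchor at an end of the gene or enclosed it, and grey lines mark percentile 50. The Myc loops of 10 kb pixels lie at or below percentile 22.6 on the x axis, while the filled Mycn squares of 10 kb pixels lie at or above 78.8.

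Mycl (chromosome 4, 122995588 to 123002490, plus strand) and its neighbour Trit1 lay inside a short loop. The loop, of 10 kb pixels, ran over 140 kb from 122940001 to 122950000, which held the 3′ end of Mfsd2a, to 123080001 to 123090000, which held the 3′ end of the non-coding gene Gm12923 and the record of Gm46868. Its peak score was 4.17 (percentile 58.2) and its peak pixel 7.98 (percentile 75.6). Mycl and Trit1 lay between its anchors, and with Mfsd2a it held 3 whole protein-coding records, against a median of 1 (quartiles 0 and 2) in the 645 loops of like span. The start site of Mycl at 122995931 lay outside every anchor. The nearest anchors were those of this loop, 45.6 kb below and 77.5 kb above the gene. No other listed loop enclosed Mycl.

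The remaining loops near Mycl fell into separate stretches on either side. Below the gene lay 12 loops, the nearest of which joined an anchor with the start site of Zmpste24, a lamin-processing protease, to an anchor with ends of Ppt1 and Cap1 (122850001 to 122875000). It spanned 1775 kb with a low peak score of 2.95 (percentile 6.19), and its near anchor ended 121 kb from Mycl. The window also took in the 3 highest peak scores of the whole list, 293, 277 and 194. Those loops lay between 121320001 and 122650000, and their near anchors were 346, 996 and 996 kb below Mycl. Their peak pixels were not as extreme, at 7.33, 6.91 and 4.84 (percentiles 64.3, 54.0 and 7.56). Ratios of these to the block mean were 1.66, 1.86 and 1.91, against a median of 1.55 for 10 kb pixels. All 3 scores were the same multiple of their peak pixels, for a reason that was not tested. They are therefore not read as the strongest contacts of the list. Without these 3 loops, Mycl had 16 loops within 2 Mb, and the highest peak score among them was 23.7. That score belonged to a loop of 25 kb pixels from 122000001 to 122025000 to 122750001 to 122775000. Its lower anchor overlaps an anchor of the loop with score 293, so the same caution applies to it. With the 3 loops left out, the median peak score near Mycl was 4.001, against 4.17 with all 19. Above the gene, 6 loops began at 748 kb and beyond.

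The first loop above Mycl had the start sites of Akirin1 and of Mycbp, which encodes a protein that binds MYC, in its anchors. This loop ran over 150 kb from 123750001 to 123760000, with the start site of Akirin1 at 123750299. That site lay near the lower edge of the anchor, and most of the Akirin1 record (123735195 to 123750299) lay below the anchor. The other anchor of the loop, from 123900001 to 123910000, held the start site of Mycbp at 123905013. A start site of Gm40240 and an end of D130007C19Rik lay in that anchor too. Start sites of protein-coding genes lay in both anchors of 101 of 4982 loops (2.03%). The peak score was 3.74 (percentile 37.9) and the peak pixel 6.50 (percentile 44.3). Farther above, a loop of 270 kb ended at Pou3f1, a POU-domain transcription factor of neural progenitors, with a peak score of 2.94 (percentile 3.495).

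The promoter of Mycl is shown as that of a member outside every anchor, and those of Akirin1 and Mycbp because their start sites lay in the anchors of a loop. They are chr4:122995681-122995980 (plus strand), chr4:123750250-123750549 (minus strand) and chr4:123904763-123905062 (plus strand), with capitals as above.
Mycl: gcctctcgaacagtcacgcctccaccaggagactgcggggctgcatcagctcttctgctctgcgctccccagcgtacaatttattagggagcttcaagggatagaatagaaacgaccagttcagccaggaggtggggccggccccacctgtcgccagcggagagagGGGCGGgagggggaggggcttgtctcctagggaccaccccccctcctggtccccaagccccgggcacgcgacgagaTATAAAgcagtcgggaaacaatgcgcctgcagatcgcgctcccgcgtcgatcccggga
Akirin1: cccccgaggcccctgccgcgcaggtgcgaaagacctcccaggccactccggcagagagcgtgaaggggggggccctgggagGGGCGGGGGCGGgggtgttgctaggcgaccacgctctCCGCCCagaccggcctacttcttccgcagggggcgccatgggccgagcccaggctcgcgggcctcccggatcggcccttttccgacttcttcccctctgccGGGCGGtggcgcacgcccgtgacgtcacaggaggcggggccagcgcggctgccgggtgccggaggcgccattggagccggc
Mycbp: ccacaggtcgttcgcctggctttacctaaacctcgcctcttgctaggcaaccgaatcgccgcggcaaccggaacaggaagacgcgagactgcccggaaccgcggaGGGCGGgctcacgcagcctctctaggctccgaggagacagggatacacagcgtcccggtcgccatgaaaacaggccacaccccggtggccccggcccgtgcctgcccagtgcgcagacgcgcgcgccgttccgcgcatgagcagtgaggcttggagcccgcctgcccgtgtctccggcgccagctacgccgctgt
The Mycl promoter held 1 GC box and a TATA box match that began at position -8 from the annotated start site. A TATA box match was present in 13.7% of all promoters. Akirin1 held 4 GC boxes and Mycbp held 1. The E-box, which 7.2% of all promoters held, was in none of the 6 promoters shown. In this 300-base window 64% of the Mycl bases and 56.7% of the Mycn bases were G or C, against a median of 53% (quartiles 46 and 61.7) over all promoters.

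Genes that act with MYC were at anchors in a few cases. A list of 30 genes, called MYC network genes here, held partners, antagonists, cofactors and regulators of MYC. Of these, 5 had an end in an anchor (16.7%), against 9.04% of all protein-coding genes, and 7 were enclosed by a loop (23.3%), against 35.5%. With anchors widened by 5 kb the share at anchors was still 16.7%, close to the 16.2% of all genes. With any overlap of the gene record 7 of the 30 were at anchors (23.3%), against 17.7%. The 5 genes with an end in an anchor were Mycbp, Trrap, Ruvbl1, Tfap4 and Bin1. Trrap, an adaptor of histone acetyltransferase complexes that MYC recruits, had a loop of 200 kb (peak score 3.47). Ruvbl1, an ATPase of chromatin-remodelling complexes, shared a loop of 300 kb with an end of Gata2, a regulator of blood formation (4.03). Tfap4, a helix-loop-helix factor that MYC induces, had a loop of 235 kb of 5 kb pixels (6.10, percentile 79.9). Bin1, which binds MYC, had a loop of 150 kb (3.60). Counted by start sites, 2 of the 25 genes with a promoter entry lay in an anchor, Mycbp and Mxi1, a MAX-binding antagonist of MYC, against 5.2% of the 17273 protein-coding genes with such an entry. Of the 5 genes with an end in an anchor, Mycbp thus had its start site there.

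Textbook MYC targets gave shares at anchors on either side of the background, depending on how an anchor was counted. Of 20 such genes, 1 had an end in an anchor (5%, against 9.04% of all genes) and 2 were enclosed (10%, against 35.5%). The gene at an anchor was Odc1, the ornithine decarboxylase of polyamine synthesis, with a loop of 250 kb and a peak score of 7.34 (percentile 97.5). With anchors widened by 5 kb the direction turned, and 5 of the 20 were at anchors (25%), against 16.2% of all genes. With any overlap of the gene record 3 were (15%), against 17.7%. Of the 15 with a promoter entry, none had a start site in an anchor. The median number of loops within 2 Mb was 9 for the MYC network genes and 9 for the targets, the same as over all genes. With so few genes, these shares describe the lists and no more.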

How the data were processed

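Micro-C was made from 2 siControl samples of V6.5 cells, and the authors deposited a single loop list. The submitters' processing notes name mm10 as the build and Juicer 1.5.6 as a tool. Not given in the sources used here are the caller, its thresholds, the normalization of the map and any pooling, and depth is unknown. The list has 15 columns and no header. The deposited scores in columns 8 and 10 and the neighbourhood scores, the deposited fraction in column 9 (0.964 to 1) and the deposited signal in column 15 (the peak pixel) were identified from their order and values. Column 15 minus 8/9 of column 11 equalled column 13 to within 2.3e-06. They are the authors' own values and serve only to rank loops within the list.

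Anchors were turned into 1-based coordinates. Loops were counted per gene from gene records, and start sites came from RefSeq promoter entries. Of 3 members, 2 had one. Span is the distance between anchor midpoints. Percentiles split ties evenly. The counting was tested on simulated loops. Python 3.11.15 and pandas 2.3.3 were used. The members and lists were chosen with earlier results of these data known, and no p-value was computed. Named loops are those at or around a member, the nearest other loop and the one of highest peak score. Beyond these, the 240 kb loop above Mycn, the loop above Mycl with Akirin1 and that with Pou3f1, the other loops near Mycl with scores over 100, Gata2, Mxi1 and the sequences shown were chosen after their values were seen. Alternatives covered pixel size, score, anchor width, window and start sites.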

Additional observations from a re-analysis of the deposited data

How the results depend on the processing

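No paired analysis was possible because values per sample are not in the loop list, and no replicate could be left out. Of 110 alternative values, 69 kept the reported value or, for counts, stayed within 1.5 times of it, and 41 moved. With 5 kb pixels alone, the loops within 2 Mb were 0 for Myc, 1 for Mycn and 3 for Mycl, with 0 at an end of or enclosing any member. The highest peak score near Mycl was then 4.06, with 1 MYC network gene and 0 targets at anchors, and Myc had no score. With 10 kb pixels alone, Myc was enclosed by 1 loop, Mycl had 10 loops within 2 Mb and 3 network genes were at anchors. The highest scores were then 4.49 near Myc and 5.64 near Mycn. With 25 kb pixels alone, the loops within 2 Mb were 1 for Myc, 2 for Mycn and 6 for Mycl, those at an end 0, and those enclosing 1 for Myc, 1 for Mycn and 0 for Mycl. The highest scores were then 6.32 near Mycn and 23.7 near Mycl, with 1 network gene and 0 targets at anchors. Fewer loops enter each of these counts by construction.

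Among loops at or above the median score of their pixel size, the loop at Myc was gone (0). Mycl then had 11 within 2 Mb, and 2 network genes were at anchors. Widening anchors by 5 kb put 5 of 20 targets at anchors (25%, against 16.2% of all genes), above the background where the reported 5% is below 9.04%. Any overlap of the record put 3 there. In a window of 0.5 Mb, Mycn had 6 loops and Mycl had 9, with highest scores of 4.49 near Myc and 5.30 near Mycn. In a window of 1 Mb the highest score near Mycn was 5.64. Alternatives chosen after seeing the data were leaving out scores over 100 and counting start sites. The former gave 23.7 near Mycl, and the latter gave 2 network genes and 0 targets. The cause of these shifts was not tested. Anchors of 5 to 25 kb limit which gene end or element a loop is assigned to.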
